A study of Mus musculus with 6 samples.

Results

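The genes described here are Coq8a and 9 other genes of coenzyme Q synthesis: Coq2, Coq3, Coq4, Coq5, Coq6, Coq7, Coq9, Pdss1 and Pdss2. They were found by symbol in a table of read counts per gene, and all 10 of the 10 were present among its 20199 genes. All 10 also passed the filter on low counts that left 15185 genes to test. Coq8a was chosen by its p-value and fold change in the comparison of genotypes, where it stood among the genes with the smallest p, so its own difference is given below as a description. The other 9 were picked as genes of the same pathway. The table comes from RNA sequencing of aortic smooth muscle cells of C57B6 mice aged 12 weeks. The control samples (3 libraries, called wild type) have the genotype WT/mTmG/ Myh11ERT2, and the miR-21 -/- samples (3 libraries, called knockout) have miR-21fl/flmTmG/Myh11ERT2. Both genotypes therefore share mTmG, a fluorescent reporter of Cre recombination, and Myh11ERT2, an inducible driver named for the smooth muscle myosin gene, which limits recombination to cells that use that gene. The sources used here do not say whether an inducer was given, whether cells were cultured or pooled, or whether each library is a separate animal. P-values therefore measure only the spread between these libraries, which may be technical. Loss of miR-21 itself was not analysed here.

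Coenzyme Q, or ubiquinone, is a lipid of the inner mitochondrial membrane that carries electrons from dehydrogenases such as complexes I and II to complex III. Its isoprenoid tail comes from the mevalonate route, which also feeds cholesterol. The ring is attached to the tail and then modified by a group of enzymes that work together at the inner membrane, and COQ8A, an atypical member of the protein kinase-like fold with ATPase activity, supports that group without modifying the ring itself. Loss of human COQ8A function causes a coenzyme Q deficiency with cerebellar ataxia. The question put to the data is how these genes differ between smooth muscle cells of the 2 genotypes.

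Library totals ran from 17123748 to 28610649 counts. Wild-type replicate 1 stood apart on the first principal component (-58.1, against 1.53 to 27.3 for the other 5 libraries), so the fold change of each synthesis gene is also given without it. The smooth muscle markers Acta2, Myh11, Tagln, Cnn1, Smtn, Lmod1, Des and Myocd were present in every library and summed to 42246 to 48608 counts per 1000000 counts (CPM) in wild type and 43649 to 44731 CPM in knockout. Of 12 markers of striated and heart muscle, a tissue rich in COQ8A, the summed level was 74.95 to 89.2 CPM in wild type and 81.1 to 96.3 CPM in knockout. Most of it was Ryr2, a calcium release channel gene (52.7 ± 5.06 CPM in wild type against 66.5 ± 8.45 CPM in knockout, SD, n = 3), which smooth muscle also expresses. The striated genes Myh6 and Mb were at most at 1.40 and 0.171 CPM in any library, and Ckm, the muscle creatine kinase gene, at 9.53 ± 2.36 and 6.36 ± 4.455 CPM. Other striated genes were higher than Myh6 and Mb. Actc1 reached 9.66 CPM in wild-type replicate 2 and Tnnt2 reached 9.40 CPM in knockout replicate 3. Myh7 reached 4.41 CPM in wild-type replicate 3 and Acta1 2.85 CPM in wild-type replicate 1. Sums for endothelium (6 markers; 32.6 to 35.7 and 31.8 to 43.7 CPM), adventitial fibroblasts (6 markers; 61.6 to 79.95 and 48.1 to 96.0 CPM) and macrophages (6 markers; 3.92 to 7.84 and 1.25 to 7.54 CPM) overlapped between wild type and knockout. So did the brown adipocyte sum (4 of 6 markers found by symbol, 206.8 to 267 and 189 to 222 CPM), most of which was Prdm16. The same held for Fabp4, the 1 of 6 adipocyte markers found (53.5 to 74.5 and 38.9 to 68.8 CPM). The fat markers Ucp1, Elovl3, Adipoq, Plin1, Lep, Cidec and Retn were not found, so neither value covers them. The sums of all these lists thus overlapped between the genotypes, and in edgeR 0 of their tested genes passed. Those tested were 3 of 6 for endothelium, 3 of 6 for macrophages and 10 of 12 for striated and heart muscle. Single markers lay apart between the genotypes: Ryr2 (log2 fold change 0.34) and Ppargc1a (0.36) with the knockout above, and Cnn1 (-0.32) and the macrophage gene Cd68 (-0.89) with the knockout below. Of these, Ryr2 and Cnn1 had an unadjusted edgeR p under 0.05. Of all genes tested, 14.5% lay apart in either direction and 6.29% had an unadjusted edgeR p under 0.05. In knockout 7 of 8 smooth muscle markers and 7 of the 10 striated markers tested had the lower fitted mean. The share of all genes tested that were lower was 50.1%. The part of these markers in the results below was not tested.

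Coq8a, which lies on the minus strand of chromosome 1 from 180165238 to 180199602 (mm10, deposited span), was higher in all 3 knockout libraries than in any wild-type library. Reads counted for it numbered 1333, 1998 and 2710 in the wild-type libraries (replicates 1 to 3) and 2684, 2828 and 4074 in the knockout libraries. After scaling for depth with TMM factors these were 79.2, 102 and 94.9 CPM in wild type against 152.8, 127 and 145 CPM in knockout. The nearest libraries of the groups were wild-type replicate 2 and knockout replicate 2, and the groups did not overlap. The mean was 91.9 ± 11.5 CPM (SD, n = 3) in wild type and 142 ± 13.2 CPM (n = 3) in knockout, a ratio of 1.54 and a fitted log2 fold change of 0.62 ± 0.13 (SE). Across all genes tested, groups lay apart with the knockout above in 6.95% and in either direction in 14.5%. The p that led to its choice was 0.00119 in edgeR's quasi-likelihood test, where 2.85% of all genes were higher in knockout with an unadjusted p under 0.05. The adjusted p was 0.489, above the threshold of 0.05 that 0% of the 15185 genes passed. DESeq2, a second count test, gave an adjusted p = 0.0141, and it called 0.475% of the genes it adjusted. That p comes from the libraries in which Coq8a was chosen, so it is no separate support. Without wild-type replicate 1, which held the lowest Coq8a value, the edgeR log2 fold change was 0.53 and the adjusted p = 0.161. In bulk RNA a change in the make-up of the cells and a change of RNA per cell cannot be told apart.

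The last 366 bases of Coq8a overlap the end of Cdc42bpa, a kinase gene on the opposite strand. The sources used here do not say whether reads were counted by strand, so those in that overlap are uncertain. Cdc42bpa was at 112 ± 21.5 CPM in wild type against 128.7 ± 13.7 CPM in knockout (log2 fold change 0.20 ± 0.16, edgeR adjusted p = 0.786). On the other side of Coq8a, Psen2, a presenilin gene whose nearest base lies 27.4 kb away, was at 19.6 ± 2.97 and 18.6 ± 0.676 CPM (-0.07 ± 0.15). Next to it, Itpkb, an inositol phosphate kinase gene, was at 56.3 ± 6.86 and 62.6 ± 3.49 CPM (0.15 ± 0.12). Beyond Cdc42bpa, Ahctf1 had a log2 fold change of 0.20, Sccpdh of 0.08 and Cnst of 0.37. The groups overlapped for each of these 6 neighbouring genes, and none of the 6 passed in edgeR or had an unadjusted p under 0.05.

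RefSeq (build GRCm38.p6) lists 2 start sites for Coq8a, and the sequence around each is shown because Coq8a is the member whose levels lay apart between genotypes. Each window holds 250 bases before the start and 50 after it, read 5′ to 3′ on the strand of the gene. Capitals mark the CCAAT box or its reverse complement ATTGG and the GC box GGGCGG or its reverse complement CCGCCC. The upstream window is at chr1:180195971-180196270 and the downstream one at chr1:180193436-180193735, both on the minus strand. The window of Coq6 at chr12:84361718-84362017 on the plus strand is given for comparison. The deposited span of Coq8a runs 3582 bases further upstream than the RefSeq gene, which ends at 180196020, so both windows lie inside it.
Coq8a, upstream start: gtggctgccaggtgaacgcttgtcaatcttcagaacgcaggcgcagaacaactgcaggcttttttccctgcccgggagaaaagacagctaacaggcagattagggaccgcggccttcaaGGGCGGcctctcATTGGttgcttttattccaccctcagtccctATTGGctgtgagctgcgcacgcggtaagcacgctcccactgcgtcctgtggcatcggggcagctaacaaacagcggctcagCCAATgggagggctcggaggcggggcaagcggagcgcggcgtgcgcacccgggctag
Coq8a, downstream start: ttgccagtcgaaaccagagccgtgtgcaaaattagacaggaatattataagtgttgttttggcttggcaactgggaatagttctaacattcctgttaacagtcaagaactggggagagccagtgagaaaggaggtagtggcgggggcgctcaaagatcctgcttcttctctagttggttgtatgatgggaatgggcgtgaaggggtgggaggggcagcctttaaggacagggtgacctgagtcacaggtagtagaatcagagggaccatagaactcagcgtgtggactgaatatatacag
Coq6: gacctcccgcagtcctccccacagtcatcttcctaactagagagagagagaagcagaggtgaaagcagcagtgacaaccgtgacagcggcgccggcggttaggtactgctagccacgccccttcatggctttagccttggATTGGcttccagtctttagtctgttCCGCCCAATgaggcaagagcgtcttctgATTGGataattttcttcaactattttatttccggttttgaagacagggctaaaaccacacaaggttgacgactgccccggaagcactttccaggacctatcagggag
The upstream window of Coq8a held 3 CCAAT matches and 1 GGGCGG match, and the downstream window held 0 of either. Coq6 held the same numbers, 3 and 1, with a CCGCCC that overlaps a CCAAT, and was the only other member found to do so. Of 32851 such windows on chromosomes other than 18, 37.4% held at least 1 CCAAT and 35.7% at least 1 GGGCGG on either strand. The share with 3 CCAAT matches, or with both motifs, was not counted. Windows were found for 9 of the 10 members, all but Coq5. Besides Coq8a and Coq6, CCAAT occurred in Coq7 and GGGCGG in Coq3, Coq9 and Pdss2. AAGGTCA, a nuclear receptor half-site, occurred in Pdss1 (4.72% of all windows), the E-box CACGTG in Coq4 (7.15%), and GCATGCG, part of the site of the factor NRF1, in Coq2 (3.58%). These are matches of letters, and which start site the cells used was not analysed here.

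**Figure D1:**
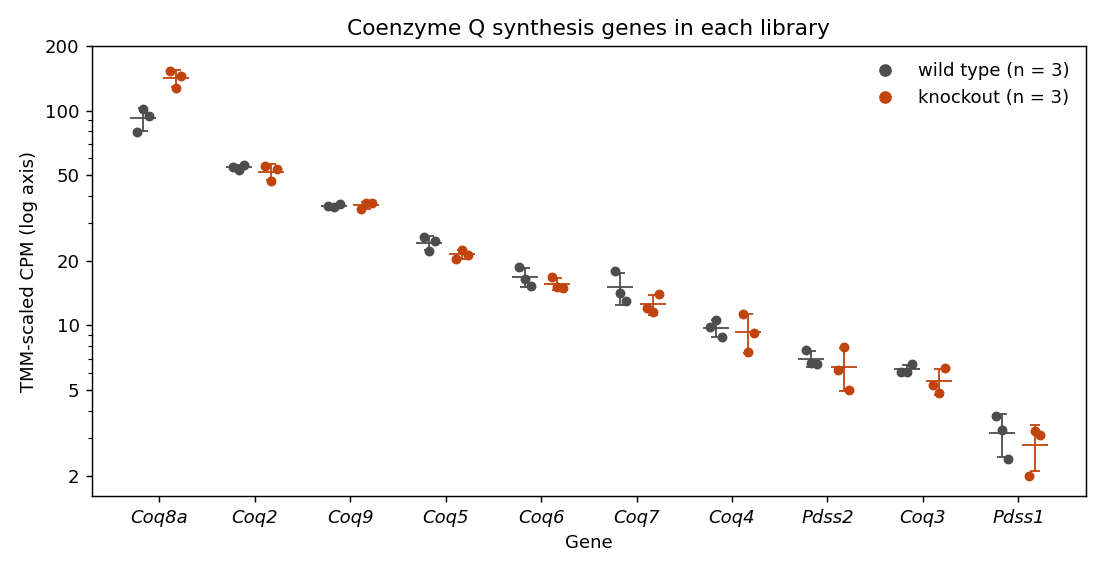
TMM-scaled CPM (log axis) of the 10 coenzyme Q synthesis genes in each of 6 libraries; points are libraries, the horizontal dash is the mean and the bar is the SD (n = 3 per genotype). Coq8a is the gene at which the knockout libraries (127 to 152.8 CPM) all lie above the wild-type libraries (79.2 to 102 CPM); for the other 9 genes the groups overlap.

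The 9 other synthesis genes showed no shift of that size. Of the 9, the fitted mean in the knockout was higher for 1 and lower for 8, where it was higher for 49.9% and lower for 50.1% of all genes. Their log2 fold changes ran from -0.26 for Coq7 to 0.02 for Coq9 with a median of -0.13, while the median of all genes tested was near 0 (-0.00078). Without wild-type replicate 1 the median of the 9 was -0.06, and without knockout replicate 2 the fitted mean was higher for 3 and lower for 6. In edgeR 0 of the 9 passed over all genes and 0 had an unadjusted p under 0.05, where 6.29% of all genes did (433 higher and 522 lower; 643 and 376 when library totals replaced TMM factors). DESeq2 and limma voom called 0 of the 9 as well. The groups overlapped for each of the 9.

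The tail is built by a synthase of 2 subunits, PDSS1 and PDSS2, and both genes were low. Pdss1 (chromosome 2, 22895522 to 22940266) was at 3.80, 3.25 and 2.38 CPM across wild-type replicates 1 to 3, against 1.99, 3.23 and 3.10 CPM across knockout replicates 1 to 3, from only 35 to 87 counts. Its wild-type range overlapped the knockout range (log2 fold change -0.16 ± 0.29, edgeR adjusted p = 0.893). Pdss2 (chromosome 10, 43221486 to 43464882) was at 7.67, 6.66 and 6.62 CPM and 6.20, 7.90 and 5.02 CPM (-0.13 ± 0.21, adjusted p = 0.877). Knockout replicate 2 held its highest value and knockout replicate 3 its lowest. Leaving out wild-type replicate 1 gave -0.0035 for Pdss1 and -0.06 for Pdss2 (log2 fold change).

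Coq2, the gene of the transferase that joins the ring precursor to the tail, was the second most counted member. It lies on chromosome 5 from 100654723 to 100675140 and was at 54.4, 52.7 and 56.0 CPM in wild type against 55.3, 46.8 and 53.5 CPM in knockout. Knockout replicate 2 was the lowest library, and the other 5 lay between 52.7 and 56.0 CPM. The log2 fold change was -0.07 ± 0.11 (edgeR adjusted p = 0.884), and -0.07 without wild-type replicate 1.

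The ring is then hydroxylated and methylated. Coq6 (chromosome 12, 84361657 to 84373796), which encodes a ring hydroxylase, was at 18.6, 16.4 and 15.3 CPM in wild type against 16.8, 15.1 and 14.95 CPM in knockout (log2 fold change -0.10 ± 0.14, edgeR adjusted p = 0.859). Coq7 (chromosome 7, 118509659 to 118533356) encodes another hydroxylase and was at 17.95, 14.1 and 13.1 CPM against 12.1, 11.5 and 14.02 CPM (-0.26 ± 0.16, adjusted p = 0.778). Wild-type replicate 1 was the highest library for both Coq6 and Coq7, and without it the log2 fold change was -0.02 for Coq6 and -0.11 for Coq7. Coq3 (chromosome 4, 21879673 to 21912162), the O-methyltransferase gene, was at 6.06, 6.05 and 6.62 CPM in wild type against 5.29, 4.85 and 6.34 CPM in knockout (-0.18 ± 0.18, adjusted p = 0.816). Coq5 (chromosome 5, 115279666 to 115296972), the C-methyltransferase gene, was at 25.9, 22.2 and 24.6 CPM against 20.4, 22.5 and 21.3 CPM (-0.18 ± 0.12, adjusted p = 0.778). For Coq5 the overlap came from knockout replicate 2 alone, which lay just above wild-type replicate 2. The log2 fold changes with wild-type replicate 1 left out were -0.20 for Coq3 and -0.13 for Coq5.

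Coq4 and Coq9 encode partners of these enzymes. Coq9, whose product binds lipid and works with COQ7, was the steadiest member at 35.8, 35.4 and 36.6 CPM in wild type against 34.8, 37.2 and 37.1 CPM in knockout (chromosome 8, 94838321 to 94854895). Its coefficient of variation was 1.63% in wild type and 3.78% in knockout, and its log2 fold change was 0.02 ± 0.11 (edgeR adjusted p = 0.975). Coq4 (chromosome 2, 29787493 to 29797935), needed to hold the enzymes together, was at 9.81, 10.6 and 8.86 CPM against 11.3, 7.54 and 9.18 CPM (-0.06 ± 0.18, adjusted p = 0.939). Knockout replicates 1 and 2 were its highest and lowest libraries, so the knockout range enclosed the wild-type range. For Coq9 and Coq4 the log2 fold changes were 0.01 and -0.06 with wild-type replicate 1 left out.

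Some members share bases with a gene on the opposite strand, which makes their counts uncertain in the same way as for Coq8a. The overlap was 1010 bases with Trub2 for Coq4, 194 with Abi1 for Pdss1 and 38 with Ciapin1 for Coq9, and Coq6 shares some bases with Fam161b. None of these 4 partners passed in edgeR, and their log2 fold changes ran from -0.13 for Fam161b to 0.07 for Abi1. Pdss2 shares bases with AC152922.1 and AC152922.2 on its own strand, whose group means lay between 0.152 and 0.193 CPM.

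**Figure D2:**
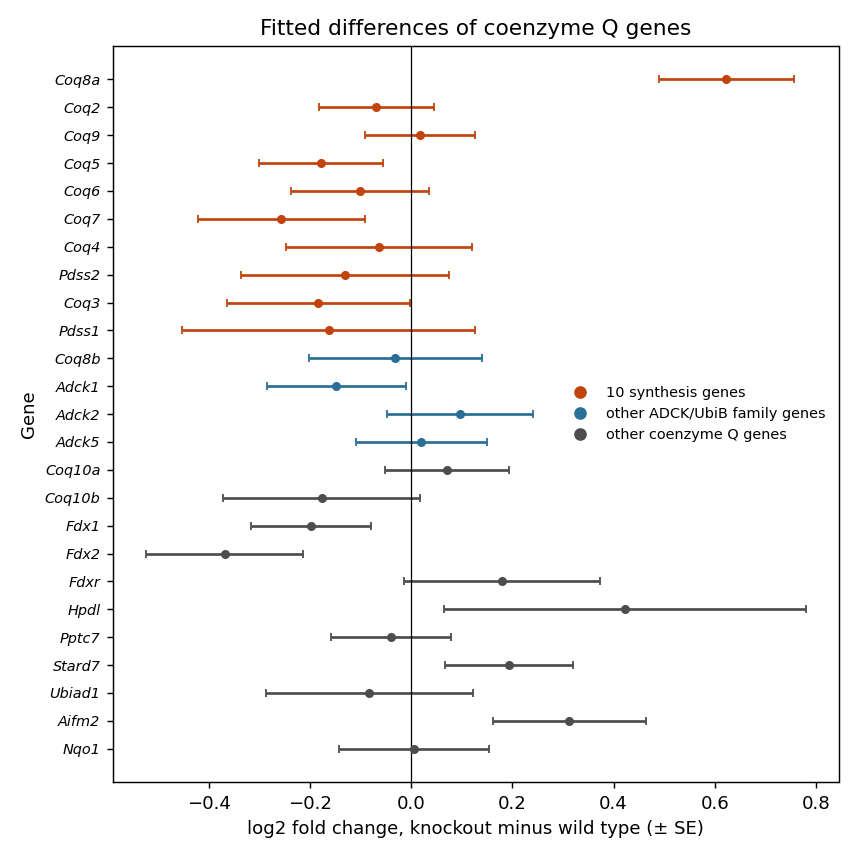
Fitted log2 fold change, knockout minus wild type, for the 10 synthesis genes, the other 4 genes of the ADCK/UbiB family and 11 other coenzyme Q genes; points are edgeR estimates and bars are ± SE (3 libraries per genotype). Coq8a is at 0.62, and the other 9 synthesis genes lie between -0.26 and 0.02.

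Set beside each other within a library, Coq8a took a larger part of the pathway's counts in the knockout. The 9 other members summed to 173 ± 6.58 CPM in wild type against 162 ± 4.41 CPM in knockout. The ratio of Coq8a to that sum was 0.440, 0.607 and 0.558 across wild-type replicates 1 to 3, against 0.930, 0.810 and 0.882 across knockout replicates 1 to 3. These ratios carry the difference for which Coq8a was picked and are a description of the same libraries.

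Levels per length, in reads per kilobase of annotated exon, scaled to depth as CPM is (RPKM), allow the members to be ordered. In wild type Coq2 came first at 20.7 ± 0.641 RPKM and Coq8a second at 17.4 ± 2.17 RPKM. In knockout Coq8a came first at 26.8 ± 2.4997 RPKM and Coq2 second at 19.8 ± 1.71 RPKM. Within each wild-type library the level of Coq8a was 0.722 to 0.956 times that of Coq2, and within each knockout library 1.34 to 1.37 times. With the longest transcript as the length the ratios were 0.631 to 0.835 and 1.17 to 1.195, so the order changed places in the same way. Both sets of ratios use the same counts and carry the difference for which Coq8a was picked.

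The order below these was nearly the same in both genotypes. Coq5 and Coq9 followed, at 11.9 ± 0.910 and 11.8 ± 0.191 RPKM in wild type and 10.5 ± 0.522 and 11.9 ± 0.450 RPKM in knockout. Over all 6 libraries the ranges of this pair overlapped, as did those of Coq8a and Coq2, Coq7 and Coq4, and Pdss2 and Pdss1. Coq6 (5.34 ± 0.531 and 4.98 ± 0.333 RPKM), Coq7 (3.76 ± 0.645 and 3.13 ± 0.331), Coq4 (2.87 ± 0.261 and 2.75 ± 0.558), Coq3 (2.08 ± 0.108 and 1.83 ± 0.255), Pdss2 (1.17 ± 0.0998 and 1.07 ± 0.243) and Pdss1 (0.741 ± 0.169 and 0.653 ± 0.160) came next. With the longest transcript Coq2 was at 31.2 RPKM in wild type, Coq9 at 20.1 RPKM and Pdss1 at 1.61 RPKM, each over 1.5 times their values by exon, so the distances between members depend on the lengths used.

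**Figure D3:**
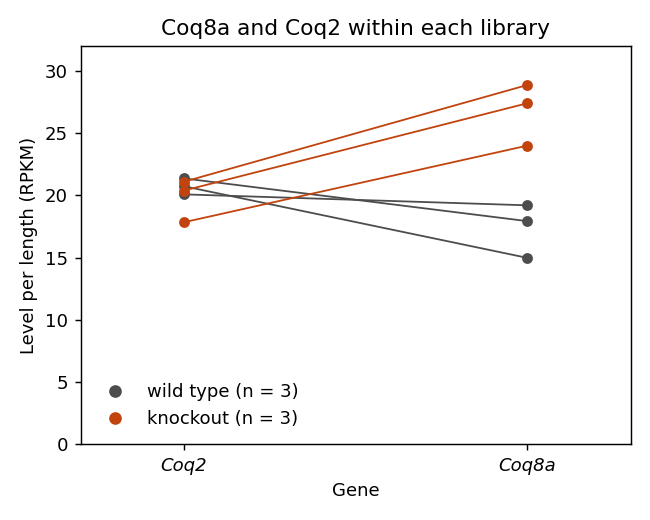
Level per length (RPKM, exon length) of Coq2 and Coq8a; each line joins both genes within 1 library (3 wild-type and 3 knockout libraries). Lines fall from Coq2 to Coq8a in the wild-type libraries and rise in the knockout libraries.

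The other genes of the ADCK/UbiB family, to which Coq8a belongs, had small fitted differences. Coq8b, the close relative of Coq8a that supports coenzyme Q synthesis in kidney podocytes, was at 11.6, 10.3 and 10.6 CPM in wild type against 11.3, 12.1 and 8.47 CPM in knockout. Knockout replicate 3 was low and the groups overlapped (log2 fold change -0.03 ± 0.17, edgeR adjusted p = 0.971). Scaled by library totals instead of TMM, the Coq8b value was 0.0079, so its sign was not settled. Adck1 had a log2 fold change of -0.15 ± 0.14, Adck2 of 0.10 ± 0.14 and Adck5 of 0.02 ± 0.13, and each lay between 11.9 and 17.1 CPM in every library. None of the 4 passed in edgeR or DESeq2.

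Among 12 other coenzyme Q genes, including Coq8b, the fitted mean was higher for 6 and lower for 6 in knockout (median log2 fold change -0.01), and 7 and 5 with library totals. With each library left out in turn the median ran from -0.01 without wild-type replicate 3 to 0.06 without wild-type replicate 2. In edgeR 0 passed over all genes and 1, Fdx2, had an unadjusted p under 0.05. Fdx2 encodes a mitochondrial ferredoxin and is named Fdx1l in the file. It was at 13.5, 11.2 and 12.4 CPM in wild type against 8.71, 9.03 and 10.9 CPM in knockout (-0.37 ± 0.16, adjusted p = 0.778). All 3 knockout values lay below the wild-type values, as they did for the second ferredoxin gene Fdx1 (27.5 ± 1.94 and 24.0 ± 1.02 CPM, -0.20 ± 0.12), where 7.57% of all genes did so. Fdxr, the gene of the reductase that feeds ferredoxin and through it COQ6, was at 4.72 ± 0.206 and 5.34 ± 0.839 CPM (0.18 ± 0.19).

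Among the same 12 genes, those that bind, move or reduce the finished coenzyme Q overlapped between the genotypes. Coq10a and Coq10b encode coenzyme Q binding proteins and had log2 fold changes of 0.07 ± 0.12 and -0.18 ± 0.19. Coq10b ranged from 41.4 CPM in knockout replicate 1 to 74.7 CPM in wild-type replicate 1, and without that wild-type library the log2 fold change was -0.04 for Coq10b and 0.15 for Coq10a. Aifm2, the gene of the reductase FSP1 that keeps coenzyme Q reduced outside mitochondria, was at 15.1, 15.9 and 19.0 CPM in wild type against 20.8, 23.4 and 18.2 CPM in knockout (0.31 ± 0.15, edgeR adjusted p = 0.778). Wild-type replicate 3 lay above knockout replicate 3. Nqo1, another quinone reductase gene, was at 29.3 ± 2.06 and 29.4 ± 4.88 CPM (0.01 ± 0.15), and Stard7, a lipid transfer gene, at 64.99 ± 7.23 and 74.3 ± 6.36 CPM (0.19 ± 0.13).

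The mevalonate route, which makes the building blocks of the tail, had mostly lower fitted means in knockout. Of 8 genes, the fitted mean was higher for 1 and lower for 7 in knockout (median log2 fold change -0.41), and 0 passed in edgeR over all genes. The 5 genes Hmgcs1, Mvk, Pmvk, Idi1 and Fdps had all knockout libraries below all wild-type libraries, as 7.57% of all genes did. Each also had an unadjusted edgeR p under 0.05, as 3.44% of all genes did in that direction. The share of all genes with both was not counted. Fdps, the gene of the synthase whose product primes the tail, was at 29.1, 29.2 and 37.9 CPM in wild type against 18.3, 18.6 and 18.8 CPM in knockout (-0.79 ± 0.14, edgeR adjusted p = 0.398; DESeq2 adjusted p = 0.00211). Idi1, the gene of the isomerase just before it, had the lowest value at -1.01 ± 0.23 (edgeR adjusted p = 0.489, DESeq2 adjusted p = 0.0151). DESeq2 called these 2 of the 8, and 0.475% of all the genes it adjusted. Ggps1, which encodes the synthase of the next longer isoprenoid, was the 1 gene with a positive value (0.19 ± 0.17). Hmgcs1 was at -0.59, and at -0.36 without wild-type replicate 3, its highest library. That library was also the highest for Idi1 (41.6 CPM) and Fdps (37.9 CPM). Without it the log2 fold change was -0.71 for Idi1 and -0.65 for Fdps.

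The genes of enzymes that use coenzyme Q had mostly small fitted differences. Of 18 genes of dehydrogenases that reduce it, the fitted mean was higher for 5 and lower for 13 (median log2 fold change -0.08), and with library totals the numbers were 7 and 11. With each library left out in turn the median ran from -0.13 without wild-type replicate 3 to -0.02 without wild-type replicate 1, and was -0.04 without wild-type replicate 2 or knockout replicate 2. In edgeR 0 passed and 0 had an unadjusted p under 0.05. Chdh, the choline dehydrogenase gene, had all knockout libraries above the wild-type ones at a low level (0.628 ± 0.0782 and 1.04 ± 0.114 CPM, 0.74 ± 0.36, adjusted p = 0.778). Etfb, which encodes an electron transfer flavoprotein subunit, was at -0.31 ± 0.17, and the complex I genes Ndufs7 and Ndufs1 were at -0.15 ± 0.14 and 0.14 ± 0.13.

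All 9 genes of complex III, which oxidises reduced coenzyme Q, had a lower fitted mean in knockout, with a median log2 fold change of -0.18, but 0 passed in edgeR and 0 had an unadjusted p under 0.05. Without wild-type replicate 1, 8 of the 9 were lower with a median of -0.06, and with the other libraries left out in turn the median ran from -0.26 to -0.15. Uqcr10, a small subunit gene highest in that library, was at 97.5, 62.2 and 69.8 CPM in wild type against 61.5, 59.2 and 68.5 CPM in knockout (-0.28 ± 0.17). Uqcrq and Uqcrb, both also small subunit genes, were at -0.25 ± 0.16 each, with all knockout libraries of Uqcrq below its wild-type libraries, and Uqcrfs1, the iron-sulfur subunit gene, at -0.17 ± 0.11.

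Of 12 regulators of mitochondrial biogenesis, the fitted mean was higher for 8 and lower for 4 (median log2 fold change 0.07; 9 and 3 with library totals), and 0 passed in edgeR or had an unadjusted p under 0.05. These numbers turned on single libraries: they were 6 and 6 with a median of 0.02 without knockout replicate 2, 10 and 2 without knockout replicate 1, and 9 and 3 with a median of 0.19 without wild-type replicate 2. Without wild-type replicate 1 or 3 they were 7 and 5, with medians of 0.05 and 0.04. Ppargc1a, the gene of the coactivator PGC-1alpha, was at 3.27, 3.20 and 3.99 CPM in wild type against 4.90, 4.22 and 4.34 CPM in knockout (0.36 ± 0.21, adjusted p = 0.778). Its knockout values lay above the wild-type values. Ppargc1b, its relative, overlapped (0.31 ± 0.18), as did Esrra, a nuclear receptor gene that works with both (0.05 ± 0.14). Gabpb1, a subunit gene of a factor of nuclear-encoded mitochondrial genes, was at -0.27 ± 0.15, and Tfb1m, which encodes a mitochondrial rRNA methyltransferase, at -0.28 ± 0.23.

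**Figure D4:**
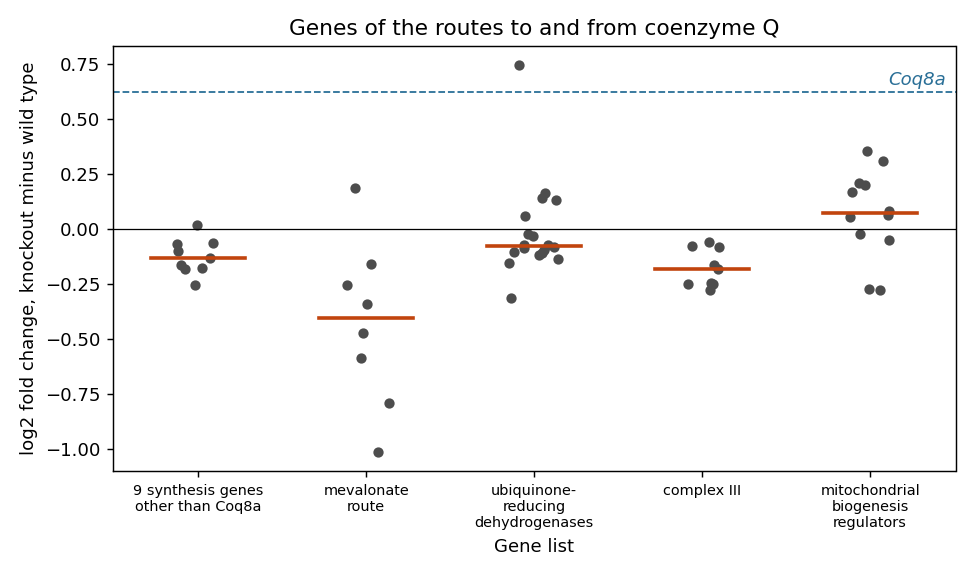
Fitted log2 fold change, knockout minus wild type, of each gene (points, spread sideways at random for visibility) in 5 lists, with the list's median as a bar and Coq8a as a dashed line at 0.62. The medians are -0.13 for the 9 other synthesis genes, -0.41 for the mevalonate route, -0.08 for dehydrogenases, -0.18 for complex III and 0.07 for the regulators.

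The genes whose values across the 6 libraries lay closest to Coq8a were not members of the pathway. Likeness was the root mean square difference of log2 CPM, with each gene centred on the mean of its 6 values. It was taken over 9743 protein-coding genes with a mean of at least 5 CPM, leaving out placeholder symbols such as Rik and Gm names. The closest were Pdgfb (0.048), a growth factor gene; Fbxo32 (0.051), the gene of the muscle ubiquitin ligase atrogin-1; Rsad1 (0.055); Smad9 (0.067), a mediator of BMP signals; and Tcp11l2 (0.080). Fbxo32 was at 135, 168 and 157 CPM in wild type against 237, 199 and 228 CPM in knockout, and Pdgfb at 7.31, 10.1 and 8.89 CPM against 14.3, 11.6 and 14.4 CPM. As for Coq8a, wild-type replicate 1 was the lowest library of each of the 5 and knockout replicate 2 the lowest knockout library. Since Coq8a separates the genotypes, genes like it do so too, and none of the 5 passed in edgeR (adjusted p = 0.530 for Fbxo32 to 0.775 for Rsad1). Among the 9 other members the closest was Coq9 at 0.340, with 4222 of the compared genes nearer, and the farthest was Pdss1 at 0.560. Pdss1 had a mean under 5 CPM, so it was measured in the same way but was not among the compared genes.

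**Figure D5:**
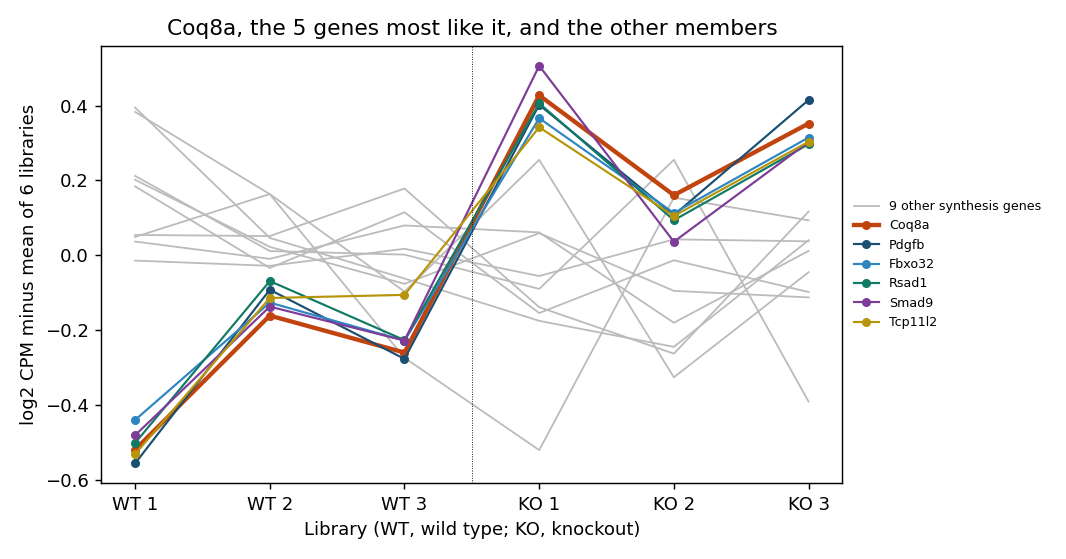
Log2 CPM minus the gene's mean over the 6 libraries, for Coq8a (thick line), the 5 genes most like it and the 9 other synthesis genes (grey); lines only join the values of 1 gene, since replicates have no order. Coq8a and the 5 genes are lowest in wild-type replicate 1; centring puts the mean of every gene at 0.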

How the data were processed

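The files hold RNA sequencing of aortic smooth muscle cells, 3 wild-type and 3 knockout libraries, grouped by the sample titles. Per the labels' protocols, libraries were made from total RNA with an Illumina TruSeq kit. Build mm10, STAR 2.6 and DESeq2 are named in the submitters' processing notes, and the sources used here name no counting tool. The deposited values are expected counts per gene (not normalised), as read from the values, since 65.4% lie within 0.01 of a whole number and totals run from 17123748 to 28610649. They were rounded. Of 4676 genes that start at the same base in RefSeq, the deposited stop lay 1 base past the RefSeq end for 1503 and on it for 91, so 1 was subtracted; printed gene spans are the deposited ones and can differ from RefSeq's.

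Genes were filtered with filterByExpr, scaled with TMM and tested 2-sided with edgeR 4.0.16 (quasi-likelihood, robust, R 4.3.3), adjusted by Benjamini-Hochberg over all 15185 genes, threshold 0.05. The SE is the log2 fold change over the root of F. The script was tested on simulated data. Alternatives were DESeq2 1.42.0, limma 3.58.1 voom, other scaling, no filter, robust=FALSE, a replicate block and leaving out each library. Log2 CPM used a prior count of 2. RPKM was CPM over exon length in GENCODE vM1, matched by symbol, which is on another build and gave no coordinates. Promoter windows are RefSeq's. A planned search for miR-21 seed matches was not run.

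The members and lists were chosen with earlier results of these data known. The naming rule took all members, the ADCK/UbiB family, the 4 genes of smallest p in each list, a few fixed genes, the 5 genes most like Coq8a and its 6 neighbours. Mvk, Fdxr and the genes that overlap a member were named after their values were seen. A gene of the mevalonate list is not reported here and is left out of that list's counts and median.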

Additional observations from a re-analysis of the deposited data

How the results depend on the processing

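Coq8a kept a positive log2 fold change under all 14 alternatives, from 0.53 to 0.71, and its adjusted p stayed above 0.05 in every edgeR fit and in limma voom. The kept sign is no separate support, and neither are the DESeq2 p-values below. Coq8a was chosen for this difference and its groups did not overlap, so leaving out a library could not be expected to turn it. DESeq2 put Coq8a past the threshold at 0.63 (adjusted p = 0.0141), and also without wild-type replicate 1 at 0.53 (adjusted p = 0.00330), an alternative chosen after seeing the data. With each library left out in turn its edgeR value ran from 0.53 to 0.71, with adjusted p-values from 0.161 without wild-type replicate 1 to 0.973 without knockout replicate 1. DESeq2 called 68 genes (0.475% of those it adjusted), 1 of the 10 members (Coq8a) and 2 other genes of the lists (Fdps and Idi1). Without wild-type replicate 1 it called 79, 1 and 3, the addition being Hmgcs1. In edgeR, leaving out 1 library called 0 to 9 genes (9 without wild-type replicate 1, 1 without wild-type replicate 2), and 0 members each time. With the replicate number as a block, Coq8a was at 0.63 (adjusted p = 0.962) and 0 genes were called. The labels do not say whether the numbers pair the libraries. Deviations from the group mean had correlations of -0.27, -0.18 and -0.08 between same-numbered libraries. Centred on groups of 3, these values cannot decide whether libraries were paired.

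Among the other members Coq3, Coq5, Coq6, Coq7 and Coq9 kept their sign throughout. The sign turned when 1 library was left out for Coq2 (-0.12 to 0.0013), Coq4 (-0.22 to 0.070), Pdss1 (-0.34 to 0.020), Pdss2 (-0.32 to 0.021) and Coq8b (-0.14 to 0.11), and the cause was not tested. Coq8b also turned with library totals (0.0079) and in DESeq2 without wild-type replicate 1 (0.020). With a prior count of 0.5, 5 of the 5 genes most like Coq8a were shared. Among the 10 members Pdss1 had the fewest counts, 35 to 87. With 3 libraries a group, differences of the size of these standard errors were not detectable.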
